A study of Mus musculus with 6 samples.

Results

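The genes described are 10 cyclic nucleotide phosphodiesterases, Pde7b, Pde7a, Pde2a, Pde3a, Pde3b, Pde4b, Pde4d, Pde5a, Pde8a and Pde10a, out of 23337 genes in the count table. They were taken by gene symbol. The set was chosen by gene family with the measured difference in gene counts between stretched and unstretched cells in view, so that difference is a description of these genes and not a test of them. RNA came from primary murine liver sinusoidal endothelial cells, whose pores let plasma reach the hepatocytes. They were isolated with immunomagnetic beads, cultured with serum, plated on collagen IV and deprived of serum before the experiment. The stretch group had 3 libraries (replicates 1, 2 and 4) of cells under cyclic stretch of 4% at 1 Hz, applied by a Flexcell instrument to the flexible culture surface. The control group had 3 libraries (replicates 2, 3 and 4) of unstretched cells. Strain, sex and age of the mice, the number of animals behind a library and the duration of stretch were not stated in the labels. The p-values therefore measure the spread between these libraries, which may be technical.

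Cyclic AMP and cyclic GMP are messenger nucleotides made by adenylyl and guanylyl cyclases, and phosphodiesterases end their signal by hydrolysing them. The enzymes differ in substrate. Those of the PDE4, PDE7 and PDE8 families act on cAMP, PDE5 acts on cGMP, and PDE2, PDE3 and PDE10 act on both. PDE2 is stimulated by cGMP and PDE3 is inhibited by it, so that these enzymes couple the cGMP signal to the cAMP level. In endothelium cAMP acts through protein kinase A and the exchange factor EPAC to tighten cell junctions, and cGMP, made in response to nitric oxide and natriuretic peptides, acts through protein kinase G.

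All class I phosphodiesterases share a catalytic domain that binds its metal ions through conserved histidine and aspartate residues. The coding sequence of its signature is shown for each gene so that the members can be compared at the active site they share. The 36 bases were read from GENCODE M21 transcripts (GRCm38), from the longest open reading frame, and the codons of the invariant histidine, aspartate and histidine are in capitals.
Pde7b: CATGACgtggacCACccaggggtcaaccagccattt
Pde7a: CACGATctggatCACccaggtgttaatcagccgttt
Pde2a: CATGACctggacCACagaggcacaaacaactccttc
Pde3a: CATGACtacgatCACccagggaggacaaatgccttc
Pde3b: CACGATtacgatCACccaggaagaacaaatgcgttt
Pde4b: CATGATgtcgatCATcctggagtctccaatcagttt
Pde4d: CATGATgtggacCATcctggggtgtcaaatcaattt
Pde5a: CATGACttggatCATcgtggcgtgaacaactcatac
Pde8a: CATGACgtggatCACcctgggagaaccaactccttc
Pde10a: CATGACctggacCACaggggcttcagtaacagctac
In this window the 45 pairs of genes differed at 6 to 21 bases, with a median of 14, and the closest pairs were Pde3a with Pde3b and Pde4b with Pde4d, at 6 bases each. Across whole transcripts, the number of 31-base stretches shared with another class I phosphodiesterase was at most 15, in Pde5a, out of 9824. Outside the family, 63.8% of the 31-base stretches of Pde2a also occurred in another gene, nearly all in Gm45837, a GENCODE gene on the same strand that shares 3955 exon bases with Pde2a and has no row in the count table. How reads in that shared stretch were counted is not known, so the Pde2a level carries this uncertainty. For Pde3a the share was 6.13%, mostly the antisense gene Gm28523. The labels do not say whether counting used strand, so Pde3a reads and antisense reads cannot be told apart. In the other 8 genes the share was at most 2.34%.

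Libraries held between 58503669 and 68489956 gene counts in the stretch group and between 48948948 and 57923937 in the control group. The labelled cell type was checked against 10 markers of sinusoidal endothelium: Pecam1, Cdh5, Kdr, Stab1, Stab2, Lyve1, Fcgr2b, Mrc1, Oit3 and Gpr182. Their summed level was 10890 to 12410 CPM in stretch and 12800 to 14230 CPM in control libraries, where CPM is the count scaled by the TMM-adjusted library size. Of these 10 markers 7 passed the test described below as lower after stretch and 0 as higher. The shares over all genes tested were 22.6% lower and 21.4% higher. Log2 fold changes of the 7 ran from -1.28 for Gpr182 to -0.24 for Stab2. Pecam1, Cdh5 and Lyve1 did not pass, at -0.09, 0.18 and 0.13. The part of these markers in the results below was not tested. In bulk RNA, fewer cells of a type and less RNA per cell cannot be told apart. Lists for other cells were present at lower levels. The 10 hepatocyte markers summed to 735.6, 157.5 and 150.3 CPM in stretch replicates 1, 2 and 4, and to 50.83 to 102.7 CPM in controls. The 10 macrophage markers summed to 112.2 to 155.3 CPM in stretch and 78.91 to 93.65 CPM in control libraries. The 8 stellate and mural markers summed to 25.66 to 51.79 CPM in stretch and 29.4 to 36.2 CPM in control libraries. Among them Lrat, a marker of stellate cells, had 2 counts or fewer per library. Des, Pdgfrb, Reln and Hand2 were counted in every library, at 138 to 462, 273 to 614, 71 to 190 and 26 to 46 counts. The 5 lymphocyte markers summed to at most 0.3557 CPM in any library, with Cd3g and Ms4a1 at 0 counts in all 6.

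The level of each gene was compared by RPKM, the deposited value scaled by gene length and sequencing depth. The deposited length is labelled coding length. For Pde7b it was 4127 bases, while the longest open reading frame had 1497. One gene dominated the family. Pde2a was at 149 ± 11.8 RPKM in stretch and 228 ± 25.6 RPKM in control cells (mean ± SD, n = 3 each, as for all such values below). It supplied between 68.9% and 72.6% of the summed RPKM of the 21 class I genes in stretch libraries and between 74.9% and 76.8% in control libraries. Pde4b followed with 35.1 ± 4.01 RPKM in stretch and 33.5 ± 4.44 RPKM in control cells, and Pde8a with 8.84 ± 0.495 RPKM in stretch and 9.58 ± 0.899 RPKM in control cells. In control cells the order then ran Pde7b, Pde10a, Pde3b, Pde7a, Pde4d, Pde5a and Pde3a. In stretch cells it ran Pde3b, Pde10a, Pde7a, Pde7b, Pde4d, Pde5a and Pde3a, so Pde7b had moved below Pde7a and Pde3b above Pde10a. Library ranges of neighbours overlapped for Pde8a and Pde3b in stretch cells, and for Pde8a and Pde7b and for Pde7a and Pde4d in control cells. The other neighbours in either order did not overlap. The 10 genes held 98.66% to 98.81% of the family's RPKM in each library.

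**Figure D1:**
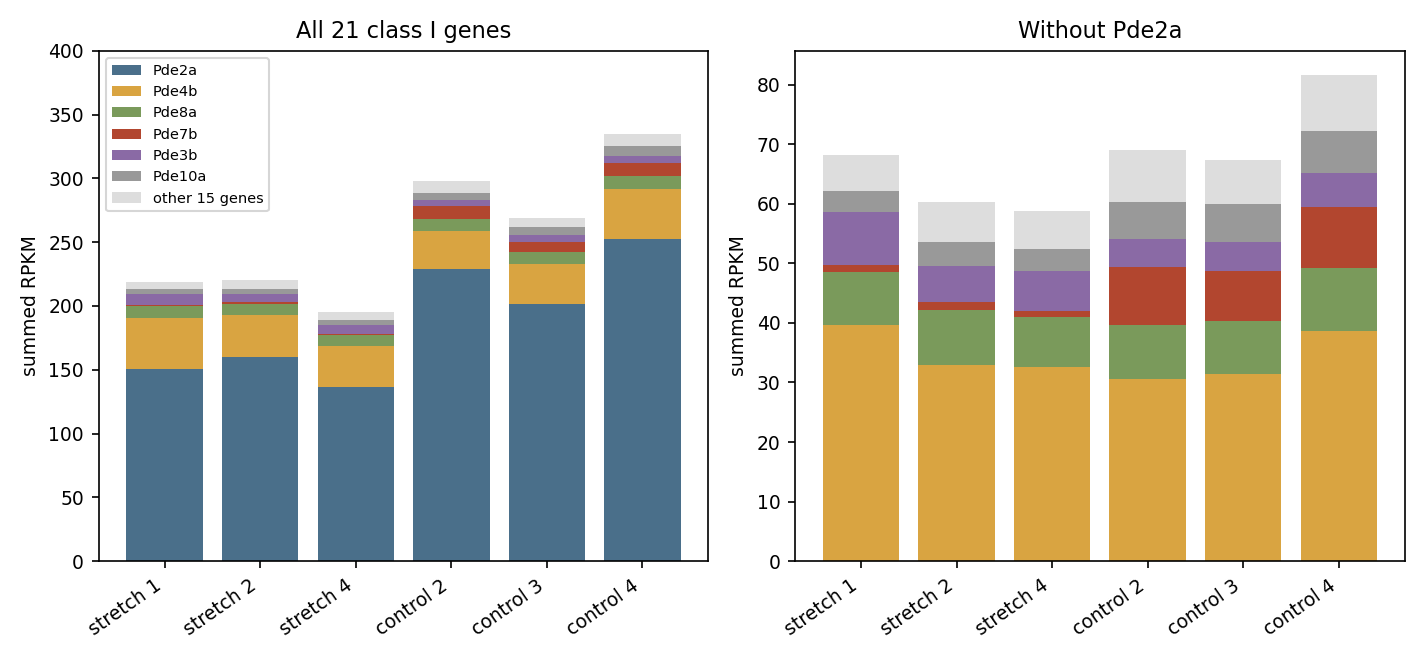
Summed RPKM of the 21 class I phosphodiesterase genes in each library, stacked by gene, for all genes (left) and without Pde2a (right), stretch libraries before control libraries. The Pde7b segment is thin in the 3 stretch libraries and between 8.245 and 10.18 RPKM in the 3 control libraries.

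All 10 genes passed the filter on low counts and were part of a test over 14222 genes, edgeR's quasi-likelihood test with Benjamini-Hochberg adjustment, where an adjusted p under 0.05 counts as passed. Of the 10 genes, 5 were lower in stretch cells (Pde7b, Pde2a, Pde4d, Pde5a and Pde10a), 1 was higher (Pde3b) and 4 did not pass (Pde7a, Pde3a, Pde4b and Pde8a). Over all genes tested 22.6% passed as lower and 21.4% as higher, and nothing is read from the comparison because the set was chosen with these differences known. With library sizes alone as scaling, 32.7% of the genes that passed were higher, against 48.6% with TMM, and the median log2 fold change of all genes was -0.107. The same counts of 5 and 1 among the phosphodiesterases were found under that scaling. The median log2 fold change of the 10 genes was -0.28, and that of all tested genes was -0.01. Group ranges did not overlap for 6 of the 10, where 55.9% of all genes tested had ranges that did not overlap.

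**Figure D2:**
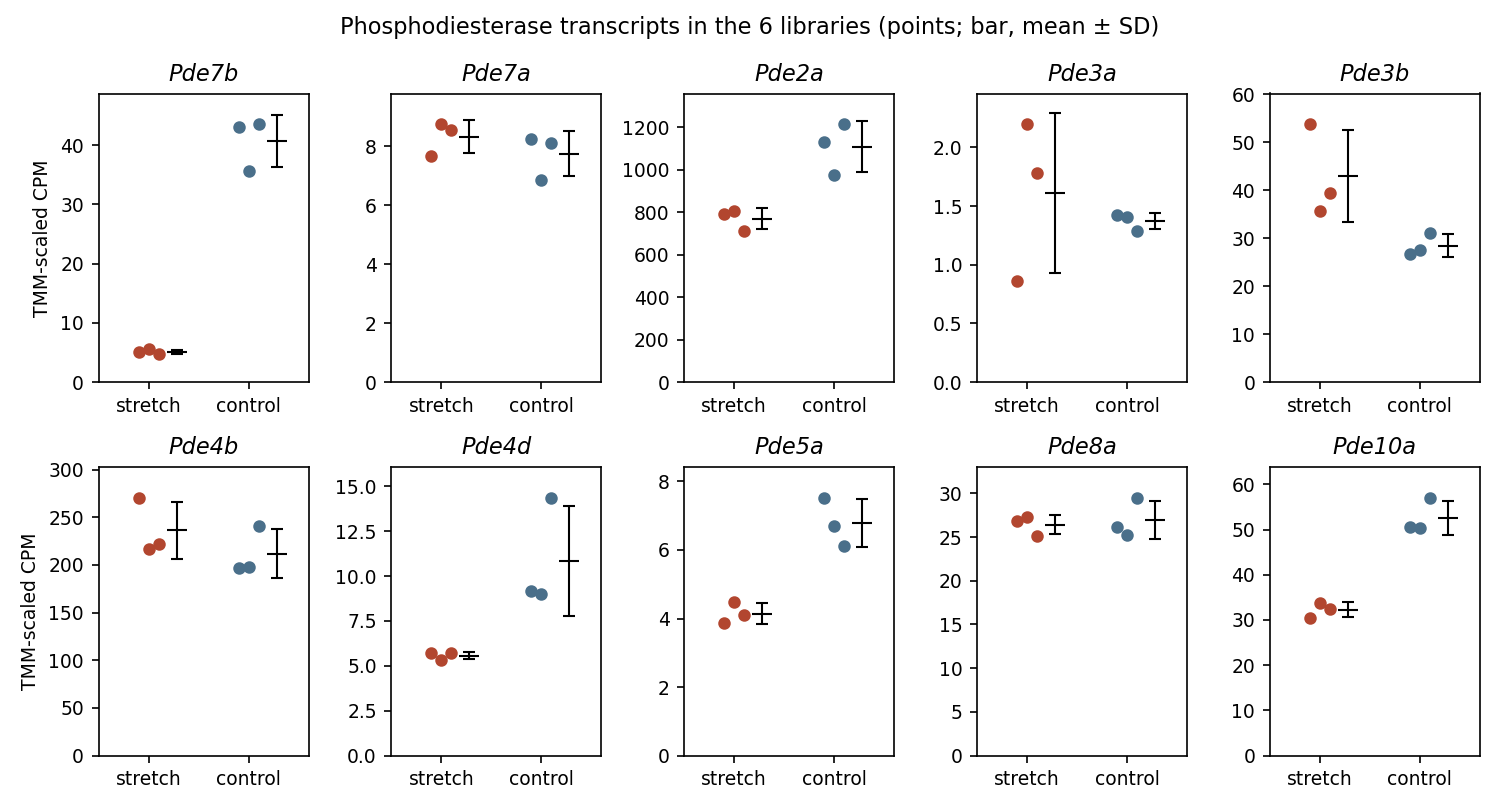
TMM-scaled CPM of the 10 phosphodiesterases in each library (points, linear axes from 0), with the mean and SD of 3 libraries beside them, stretch left of control. The Pde7b points sit between 4.731 and 5.539 CPM in stretch libraries and between 35.55 and 43.47 CPM in control libraries, while the groups of Pde7a, Pde3a, Pde4b and Pde8a overlap.

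Among the cAMP-specific enzymes, the PDE7 pair parted. Pde7b (chromosome 10, 20398004 to 20725068, mm10), a high-affinity cAMP phosphodiesterase that rolipram does not inhibit, had 280, 376 and 266 counts in stretch replicates 1, 2 and 4, against 2539, 1798 and 2326 in control replicates 2, 3 and 4. That is 5.022, 5.539 and 4.731 CPM in stretch and 42.99, 35.55 and 43.47 CPM in control libraries. Every stretch library lay far below every control library, and the spread within each group was small, with coefficients of variation of 8.03% in stretch and 10.9% in control cells. The log2 fold change was -2.99 ± 0.10 (SE), a 7.965-fold lower level, and only 3 of the 14222 genes tested had a lower value. Its paralogue Pde7a (chromosome 3, 19225918 to 19311322) had 7.676, 8.735 and 8.554 CPM in stretch and 8.247, 6.86 and 8.112 CPM in control libraries. These groups overlapped, and the log2 fold change was 0.10 ± 0.11. The ratio of Pde7b to Pde7a by RPKM was therefore 0.577, 0.559 and 0.488 in stretch libraries and 4.6, 4.57 and 4.72 in control libraries. Per length, Pde7b was the more abundant of the pair in each control library and the less abundant in each stretch library.

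Of the PDE4 family, Pde4b and Pde4d are in the set, and they also differed. The other members, Pde4a and Pde4c, had log2 fold changes of -0.37 and -1.08 and are described below. PDE4 enzymes are the rolipram-sensitive cAMP phosphodiesterases, and PDE4B is known for its control of cytokine release in myeloid cells. Pde4b (chromosome 4, 102254742 to 102607262) had 270.2, 216.2 and 222 CPM in stretch and 196.8, 197.9 and 241.1 CPM in control libraries. The ranges overlapped, with the highest value in stretch replicate 1, and the log2 fold change was 0.16 ± 0.11. Pde4d (chromosome 13, 108654177 to 109955969) had 5.703, 5.333 and 5.691 CPM in stretch and 9.161, 8.976 and 14.35 CPM in control libraries. The 3 stretch libraries were close together and below all controls, and control replicate 4 stood above the other controls. Its log2 fold change was -0.96 ± 0.18. The ratio of Pde4b to Pde4d by RPKM was 55.3, 47.4 and 45.6 in stretch libraries and 25.1, 25.8 and 19.6 in control libraries. Gene counts pool the isoforms of Pde4b and Pde4d, of which GENCODE lists 9 and 12 coding transcripts, so a shift between isoforms was not measured.

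Pde8a (chromosome 7, 81213804 to 81333622) encodes a cAMP phosphodiesterase of very high affinity. It had 26.87, 27.25 and 25.16 CPM in stretch and 26.11, 25.27 and 29.47 CPM in control libraries. The groups overlapped almost wholly, and the log2 fold change of -0.03 ± 0.07 was the smallest of the 10. Its sign changed without stretch replicate 4 and without control replicate 4. Summed over the 8 cAMP-specific genes of the family, RPKM was 54.49, 48.44 and 46.95 in stretch libraries and 56.37, 54.47 and 67.03 in control libraries. Without Pde7b the sums were 53.41, 47.21 and 45.94 in stretch and 46.62, 46.23 and 56.85 in control libraries. The groups overlapped both with and without Pde7b.

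The enzymes that act on both nucleotides moved in different directions. Pde2a (chromosome 7, 101421691 to 101512829), the cGMP-stimulated phosphodiesterase, had 790, 807.8 and 712.4 CPM in stretch and 1133, 977.7 and 1214 CPM in control libraries. All stretch values were below all control values, and the log2 fold change was -0.53 ± 0.09. Its fold, 1.439, was the smallest among the 5 lower genes, but in RPKM its difference was by far the largest, since it was at the 99.3rd percentile of mean expression among tested genes. Pde10a (chromosome 17, 8801745 to 8986648), best known from striatal neurons, had 30.43, 33.73 and 32.51 CPM in stretch and 50.48, 50.36 and 56.99 CPM in control libraries. The groups were well apart, with a log2 fold change of -0.71 ± 0.07.

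Pde3b (chromosome 7, 114415254 to 114537937) was the 1 gene of the 10 that passed as higher. It encodes the cGMP-inhibited phosphodiesterase through which insulin lowers cAMP in adipocytes and hepatocytes. It had 53.68, 35.69 and 39.36 CPM in stretch replicates 1, 2 and 4, and 26.64, 27.58 and 31.12 CPM in controls. Each stretch library was above each control, and replicate 1 was the highest. The log2 fold change was 0.59 ± 0.14 with all libraries and 0.41 without stretch replicate 1, where the gene still passed. Stretch replicate 1 was also the library with the most hepatocyte, macrophage and cholangiocyte marker RNA, the last at 111.9 CPM. In the stretch group 8 of the 10 hepatocyte, 8 of the 9 tested macrophage and 2 of the 4 cholangiocyte markers passed as higher. Over all genes tested 21.4% passed as higher. The part of these markers in the Pde3b difference was not tested. The ratio of Pde2a to Pde3b by RPKM was 16.8, 25.8 and 20.6 in stretch libraries and 48.4, 40.4 and 44.4 in control libraries.

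Its relative Pde3a (chromosome 6, 141249269 to 141499351), the cGMP-inhibited phosphodiesterase of heart, platelets and vascular smooth muscle, was the scarcest of the 10. It had 48, 149 and 100 counts in stretch replicates 1, 2 and 4 and 84, 71 and 69 counts in control replicates 2, 3 and 4. As CPM these were 0.8608, 2.195 and 1.778 in stretch and 1.422, 1.404 and 1.29 in control libraries. The 3 controls lay close together, while the stretch libraries fell on both sides of them. Its coefficient of variation was 42.4% in stretch and 5.24% in control cells, and the log2 fold change was 0.24 ± 0.33. Without stretch replicate 2 it was -0.04. The stellate and mural markers varied over the stretch libraries in the same order, with sums of 25.66, 51.79 and 32.65 CPM in replicates 1, 2 and 4. Among them the pericyte gene Rgs5 had 63, 211 and 140 counts. Reln and Hand2 of the same list did not keep the order of the sum, with 137, 190 and 85 counts and 37, 39 and 26 counts. With only 3 libraries the shared order of Pde3a and the marker sum is a description. The part of these markers in the Pde3a values was not tested.

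**Figure D3:**
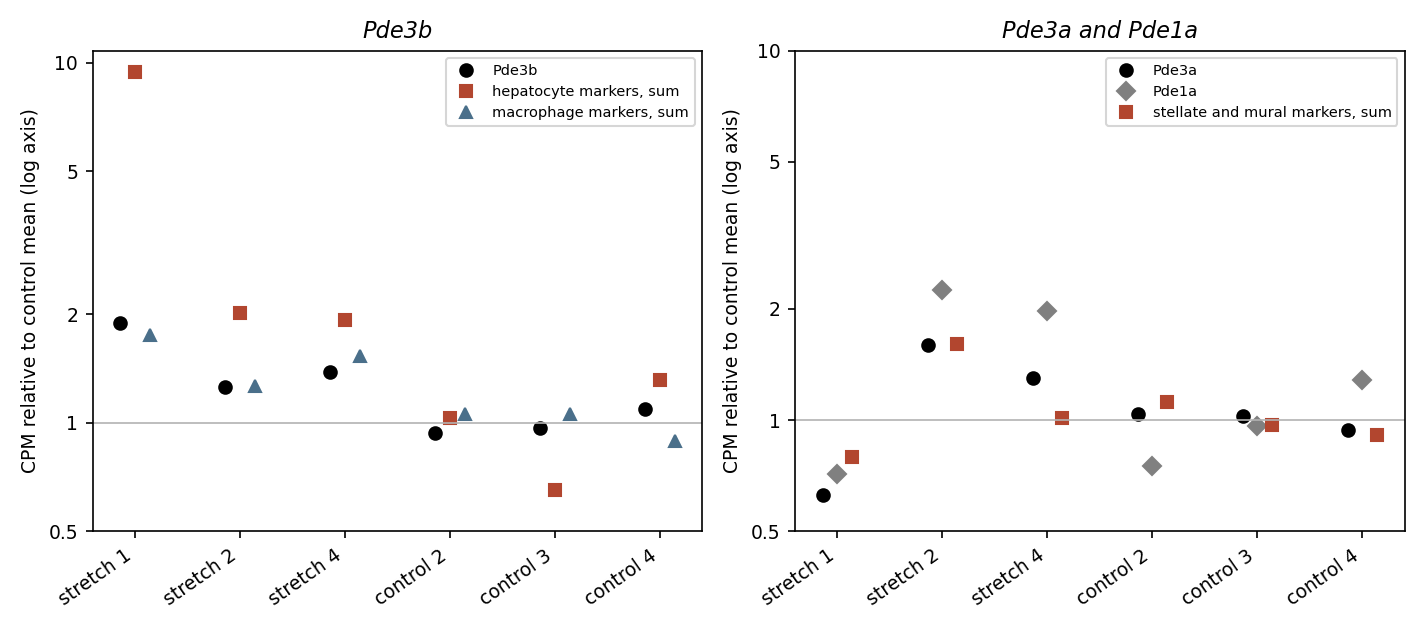
CPM in each library relative to the control mean (log axis), for Pde3b with the summed hepatocyte and macrophage markers (left) and for Pde3a and Pde1a with the summed stellate and mural markers (right), stretch libraries before control libraries. Stretch replicate 1 is the highest library for Pde3b and the lowest for Pde3a.

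Pde5a (chromosome 3, 122729158 to 122859374), the cGMP-specific phosphodiesterase that sildenafil inhibits, was the 1 cGMP-specific enzyme in the set. It had 3.874, 4.478 and 4.09 CPM in stretch and 7.519, 6.702 and 6.13 CPM in control libraries. The groups did not overlap, and the log2 fold change was -0.71 ± 0.13. By RPKM the cGMP-specific genes together made up 0.258% to 0.295% of the family in stretch libraries and 0.263% to 0.37% in control libraries.

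**Figure D4:**
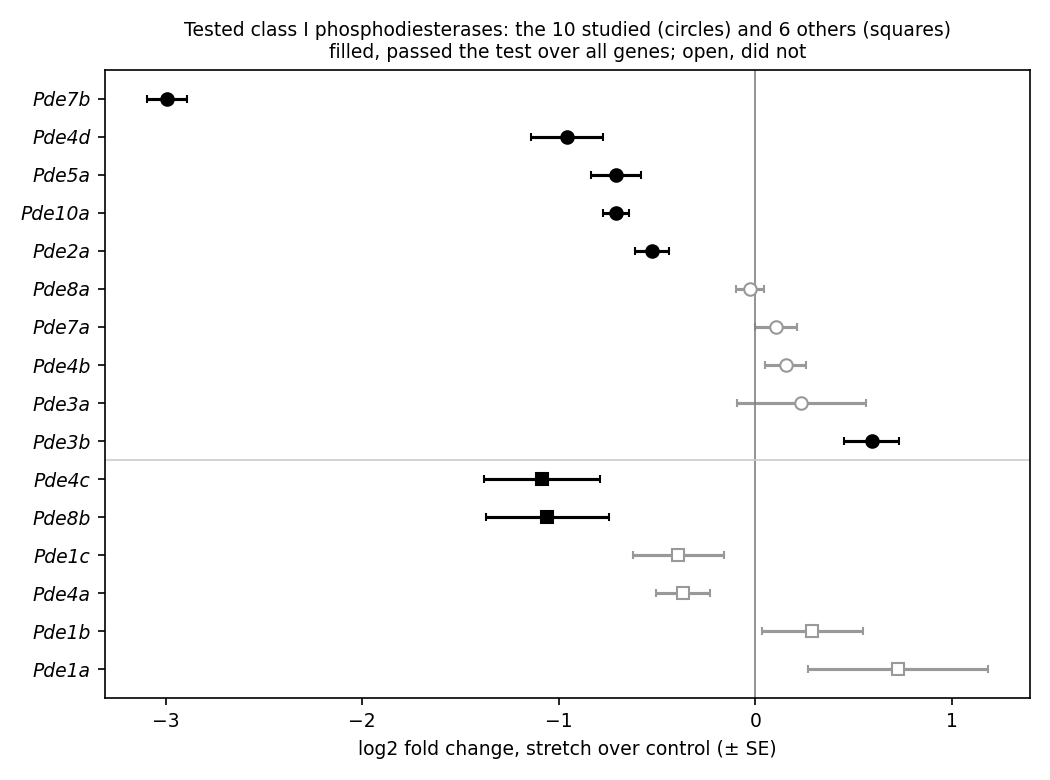
Log2 fold change (stretch over control, ± SE from edgeR) of the 10 phosphodiesterases (circles) and of the 6 other class I genes that could be tested (squares). Filled symbols passed the test over all genes. Pde7b at -2.99 stands apart from the others, which lie between -1.08 and 0.73.

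Of the remaining 11 class I genes, Pde4a had 535 to 928 counts per library and the others were scarce. Counts were too low to test 5 of them, with at most 7 counts in any library for Pde9a, 2 for Pde11a, Pde6a and Pde6b and 0 for the cone gene Pde6c. A count of 0 allows up to 0.0442 to 0.0538 CPM in stretch and 0.0508 to 0.0593 CPM in control libraries, from counting error alone. Of the 6 tested, 2 passed as lower, 0 as higher and 4 did not pass, beside the shares of 22.6% lower and 21.4% higher over all genes. Pde4c, a cAMP-specific relative of Pde4b, had 84, 54 and 74 counts in stretch and 128, 108 and 179 in control libraries, and its log2 fold change was -1.08 ± 0.29 (edgeR adjusted p = 0.0175). Without control replicate 4 it no longer passed (edgeR adjusted p = 0.0756). Pde8b, the paralogue of Pde8a, had 26, 28 and 18 counts in stretch and 39, 48 and 48 in control libraries (log2 fold change -1.06 ± 0.31, edgeR adjusted p = 0.025). Its call was lost without stretch replicate 2 or 4 or control replicate 3 or 4, with edgeR adjusted p between 0.0583 and 0.0841, and with the replicate block (0.0938). That block fits a term for each replicate number, so its contrast rests on numbers 2 and 4, which both groups share.

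Pde4a had 9.936, 10.15 and 9.799 CPM in stretch and 15.71, 10.58 and 12.2 CPM in control libraries. Its groups did not overlap but it did not pass (log2 fold change -0.37 ± 0.14, edgeR adjusted p = 0.0566). It passed with DESeq2 (adjusted p = 0.0413), with library sizes alone (0.022), with the replicate block (0.00884) and without control replicate 3 (0.0166). The calmodulin-stimulated genes Pde1a, Pde1b and Pde1c did not pass, with log2 fold changes of 0.73 ± 0.46, 0.29 ± 0.26 and -0.39 ± 0.23. Pde1a had 18, 69 and 50 counts in stretch and 20, 22 and 31 in control libraries, the same order over the stretch libraries as Pde3a. Without stretch replicate 1 it passed as higher (log2 fold change 1.09, edgeR adjusted p = 0.0411).

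The other genes of cyclic nucleotide signalling were taken from 9 lists of 87 genes, of which 68 could be tested. Of these 9 passed as higher (13.2%) and 15 as lower (22.1%), beside 21.4% and 22.6% over all genes tested, and 44 did not pass. With library sizes alone as scaling 6 were higher and 23 lower. The median log2 fold change was -0.02 in the lists and -0.01 over all genes. Genes passed in both directions in 5 of the 9 lists, and the largest change among those that passed was that of the anchoring protein gene Akap12.

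Among adenylyl cyclases, which make cAMP, 8 of 10 could be tested: 2 fell, 1 rose and the other 5 missed the threshold. For this list and the next, the shares over all genes tested were 22.6% lower and 21.4% higher. Adcy6, a cyclase inhibited by calcium, had 76.23 ± 4.464 CPM in stretch and 102 ± 2.3 CPM in control cells (log2 fold change -0.42 ± 0.05, edgeR adjusted p = 0.000438). Adcy9 fell by 0.59 ± 0.11 on the log2 scale. Adcy4 changed by 0.21 ± 0.07 on the log2 scale (edgeR adjusted p = 0.045) and lost its call when any of 5 single libraries was left out, with the replicate block (0.0514) and with library sizes alone (0.207). On the cGMP side, 7 of 12 guanylyl cyclases and natriuretic peptide receptors could be tested, of which 2 fell and 0 rose. Npr1, the receptor cyclase for atrial natriuretic peptide, had 143.6, 156.4 and 131.7 CPM in stretch and 254.8, 219.7 and 250.4 CPM in control libraries, so that its log2 fold change came to -0.75 ± 0.08 (edgeR adjusted p = 0.000187). Npr2, the receptor for C-type natriuretic peptide, fell by 0.48 ± 0.06 on the log2 scale. The subunits of the nitric oxide receptor, Gucy1a3 and Gucy1b3, had log2 fold changes of 0.23 ± 0.37 and 0.45 ± 0.23 and did not pass.

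Of the 6 G protein alpha subunits that stimulate or inhibit cyclases, 2 rose, 1 fell and 3 did not pass. Beside this, 21.4% of all genes tested passed as higher and 22.6% as lower. The inhibitory subunit Gnai3 had 367.6 ± 16.2 CPM in stretch and 263 ± 10.5 CPM in control cells (log2 fold change 0.48 ± 0.05), Gnai1 had a log2 fold change of 0.39 ± 0.06, and the stimulatory Gnal one of -0.59 ± 0.14. The main stimulatory subunit Gnas did not pass, at a log2 fold change of -0.01 ± 0.05. Of 16 receptors that stimulate cyclases 11 could be tested. The glucagon receptor gene Gcgr, known from hepatocytes, had 80, 14 and 11 counts in stretch and 4, 10 and 14 in control libraries and did not pass.

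Among effectors, 8 of 9 protein kinase A subunit and inhibitor genes could be tested: 3 fell, 1 rose and 4 did not pass. Of all genes tested 22.6% fell and 21.4% rose. Both catalytic subunits of protein kinase A were lower. Prkaca had 66.21 ± 1.034 CPM in stretch and 81.16 ± 1.071 CPM in control cells (log2 fold change -0.29 ± 0.04, edgeR adjusted p = 0.000711), and Prkacb fell by 0.25 ± 0.05 on the log2 scale. Of the regulatory subunits of this kinase Prkar2b fell by 0.47 ± 0.13 and Prkar2a had a log2 fold change of 0.24 ± 0.06. The Prkar2b groups overlapped, with stretch replicate 1 at 51.53 CPM and control replicate 4 at 51.25 CPM. Prkar1a, at 469.1 CPM in stretch and 475.5 CPM in control cells, did not pass (log2 fold change -0.02 ± 0.04). Prkar2b lost its call without stretch replicate 2 or 4 or control replicate 2 or 3 (edgeR adjusted p between 0.06 and 0.089), and Prkar2a without control replicate 2 (0.0512) and with library sizes alone (0.107). Rapgef3, which encodes EPAC1, the cAMP-activated exchange factor of endothelial junctions, had 110.2, 141.6 and 128.5 CPM in stretch and 204.5, 191.6 and 190.5 CPM in control libraries. Its log2 fold change was -0.63 ± 0.08 (edgeR adjusted p = 0.000636), and it was the 1 of 4 tested genes of its list to pass. The related Rapgef4 was near 1 CPM in each group, with a log2 fold change of 0.34 ± 0.33.

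A-kinase anchoring proteins hold protein kinase A, and often a phosphodiesterase, at particular places in the cell. Of 14 such genes 11 could be tested: 3 rose, 1 fell and the other 7 missed the threshold. Among all genes tested 21.4% rose and 22.6% fell by the same test. Akap12, encoding the scaffold gravin (chromosome 10, 4266329 to 4359471), had 4726, 3156 and 4241 CPM in stretch and 970.3, 1123 and 1004 CPM in control libraries. Its log2 fold change was 1.97 ± 0.14 (edgeR adjusted p = 5.76e-05). Akap2 had 1647 ± 129 CPM in stretch and 854.7 ± 89.73 CPM in control cells, a log2 fold change of 0.95 ± 0.09, from a locus also transcribed together with Palm2. Akap13, which also carries a RhoA exchange domain, had a log2 fold change of 0.73 ± 0.14, and Akap7 fell by 0.84 ± 0.13 on the log2 scale.

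**Figure D5:**
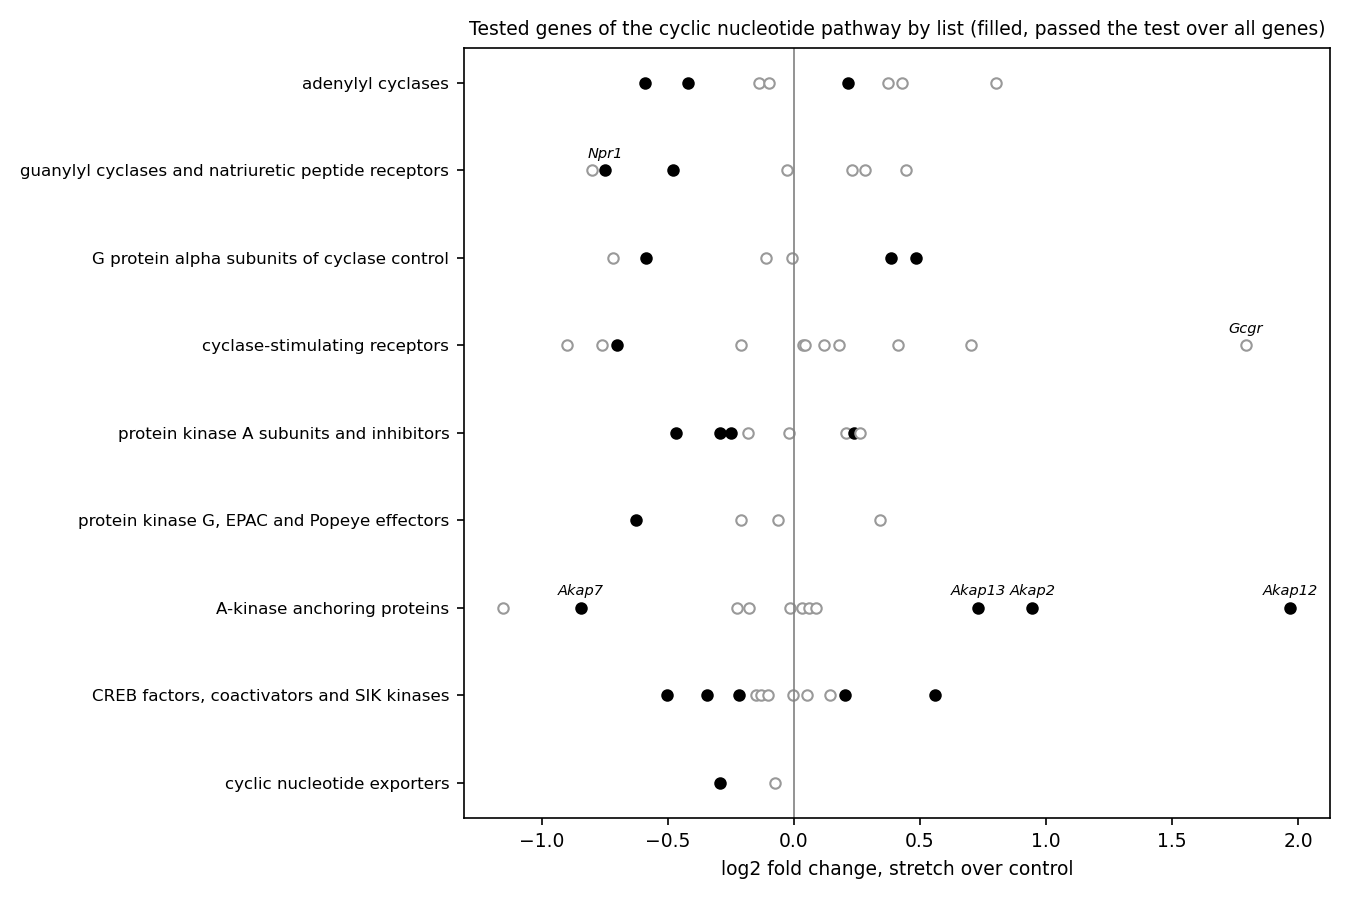
Log2 fold change (stretch over control) of the 68 tested genes of cyclic nucleotide signalling, 1 row per list. Filled points passed the test over all genes, 9 of them above 0 and 15 below, with Akap12 farthest to the right at 1.97.

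Of the 11 CREB factors, coactivators and SIK kinases, which carry the cAMP signal to transcription, 2 rose, 3 fell and 6 did not pass. That is 18.2% higher and 27.3% lower, beside 21.4% and 22.6% over all genes tested. Sik1, a kinase gene induced by CREB that restrains CRTC coactivators, had 65.8 ± 6.228 CPM in stretch and 44.63 ± 5.289 CPM in control cells (log2 fold change 0.56 ± 0.10, edgeR adjusted p = 0.00192). Atf1 had a log2 fold change of 0.20 ± 0.04, which did not pass with library sizes alone (edgeR adjusted p = 0.0933). Crtc1 fell by 0.50 ± 0.07 and Sik2 by 0.34 ± 0.07 on the log2 scale. Of the exporters that pump cyclic nucleotides out of the cell, Abcc5 fell by 0.29 ± 0.08 while Abcc4 did not pass, at -0.08 ± 0.05 (edgeR adjusted p = 0.225).

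Promoter windows of 300 bases, from 250 before to 50 after a RefSeq start (GRCm38.p6), were found for 7 of the 10 genes, in 15 windows. They were searched on both strands for the cAMP response element TGACGTCA, its half-site TGACG, which the full element contains, and the AP-1 site TGANTCA. The full element was in 0 of the 15 windows and in 1.79% of all 32851 windows in the table. The half-site was in 3 windows, of Pde2a, Pde4b and Pde8a, and in 20.8% of all windows, and the AP-1 letters were in 0 windows and in 7.81% of all. The Pde7b window (chromosome 10, 20548279 to 20548578, minus strand) belongs to a start inside the deposited gene span and held none of these letters.

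The genes whose level followed that of Pde7b most closely over the 6 libraries, among 11198 genes whose mean log2 CPM reached 1, were Hscb, a mitochondrial co-chaperone of iron-sulfur cluster assembly, Kremen1, a receptor for the Wnt inhibitor DKK1, and Irgm2, an interferon-inducible GTPase. Their Pearson's r with Pde7b in log2 CPM was 0.9997, 0.9993 and 0.9990. The libraries form separate stretch and control clusters for these genes, so the coefficient describes the group difference together with the order within groups, and no p is given. Their own changes were smaller, with log2 fold changes of -0.77 ± 0.08, -0.47 ± 0.04 and -0.91 ± 0.07.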

How the data were processed

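The authors deposited raw counts per gene and RPKM values per kilobase of coding length, per the file headers. Per the submitters' processing notes, the tools included edgeR, featureCounts and TopHat2 2.1.0, and the build was GRCm38 (mm10). The annotation and strand setting were not stated. Even numbers made up 67.2% to 69.9% of the counts between 1 and 10 but 49.6% to 50.9% of those reaching 1000, so limits from counts cover counting error alone and are too narrow if both mates of a pair were counted.

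The test was that of edgeR 4.0.16 (R 4.3.3): filterByExpr, TMM factors (0.9529 to 1.045), quasi-likelihood F test for group, Benjamini-Hochberg adjustment over 14222 genes. The SE was taken as the log2 fold change over the root of its F statistic. CPM uses the TMM-scaled library size, and log2 CPM for the likeness to Pde7b a prior count of 2. Steps were tested on simulated data, in which 200 of 14222 genes were changed and all genes had the same relative spread. There 47.8% of genes changed 1.5-fold passed in the right direction, against 91% at 2-fold and 100% at 4-fold. In the data 44.0% of genes passed, so these shares check the steps and do not give the sensitivity of the test in the data. Alternatives used DESeq2 1.42.0, limma-voom 3.58.1, other scalings and filters, a replicate block and each library left out.

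The genes, the lists and the naming rule were chosen with earlier results of these data known. The rule names all class I phosphodiesterases, up to 4 members of each pathway list that passed with the smallest p (the 2 with the smallest p where fewer than 2 passed), and the 3 genes most like Pde7b. Gnas, Gucy1a3, Gucy1b3, Prkar1a, Rgs5, Lrat, Des, Pdgfrb, Reln and Hand2 were named after their values were seen. The cholangiocyte list (Krt19, Krt7, Epcam and Sox9) summed to 82.36 to 111.9 CPM in stretch and 61.11 to 81.77 CPM in control libraries. Protein sequences were not used here. Some results of the receptor list are not reported here.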

Additional observations from a re-analysis of the deposited data

How the results depend on the processing

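Among the 10 phosphodiesterases the counts of 5 lower and 1 higher were the same under each of the 13 alternatives, and 127 recomputed fold changes kept their direction and their side of the threshold. The other 3 changed sign in genes that did not pass: Pde3a was at -0.042 without stretch replicate 2 (range over left-out libraries -0.042 to 0.54), and Pde8a was at 0.0061 without stretch replicate 4 and 0.040 without control replicate 4 (range -0.072 to 0.040). The log2 fold change of Pde7b lay between -3.085 and -2.943. For the other class I genes, 1 passed (as lower) with a filter of 1 CPM in 3 libraries, which removes scarce genes. With single libraries left out, between 0 and 2 passed as lower, 0 or 1 as higher and 0 to 3 in all; the cause was not tested. In the pathway lists 23 passed as lower with library sizes alone, a scaling that puts the median log2 fold change of all genes at -0.107. Over all genes, 4756 to 5895 passed with a library left out. The groups share the numbers 2 and 4, and nothing in the labels ties a number to one isolation. Deviations from the group mean correlated across genes at r = 0.212 for number 2 and 0.114 for number 4, each the highest of that stretch library with any control, but stretch replicate 1 and control replicate 3, which share no number, correlated at 0.18. With the replicate block 5568 genes, 6 of the 10 phosphodiesterases and 25 pathway genes passed. Number 1 occurs only in stretch and number 3 only in control, so that fit compares the groups within numbers 2 and 4 alone. Low counts limit Pde3a, Pde1a, Pde1b, Pde1c, Pde4c and Pde8b. Per library, Pde1b had 35 to 63 counts and Pde1c 56 to 110.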
